A study of Ambystoma mexicanum with 198 samples.

Results

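Gene expression in the wounded stump of the axolotl forelimb at 2 days post amputation (DPA) was compared with that in the regenerating bud at 20 DPA. The comparison used 10 arrays, replicates 1 to 5 at each time point, out of 198 arrays in the series. These 10 were chosen because all of them carry the same letters, BLP, in their sample codes, so that time is not mixed with a change of code. At 2 and at 20 DPA replicates 6 to 10 carry different letters (FF at 2 DPA and CF at 20 DPA), and there the letters and the time cannot be told apart. The sources used here do not explain the letters. All 20035 probes other than the Affymetrix control probes were tested, and 10951 of them have a single gene symbol (8639 genes).

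Both groups came from the Mexican axolotl (*Ambystoma mexicanum*), from animals of 6 to 10 months and 5 to 8 cm from snout to vent, whose forelimbs were cut through the forearm. Each array holds RNA from the distal 1 mm of a limb tip, a mixture of epidermis, connective tissue, muscle, skeleton, nerve, vessels, blood and, later, blastema. According to the authors, early samples held more stump tissue from above the cut, and later samples held more regrown tissue. The 2 DPA group is the pre-bud stump, with no outgrowth. At 20 DPA the study staged limbs as medium bud or late bud, and the labels do not give the stage of each array. Which limbs came from the same animal is not stated, so the p-values below measure the spread between these samples.

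A salamander limb regrows from a blastema, a mound of dividing mesenchyme-like cells beneath a specialised wound epidermis. Before the blastema forms, the cut surface is sealed, blood cells enter, damaged muscle, skeleton and nerve break down near the cut, and the matrix is rebuilt. The blastema then uses many of the transcription factors and signals that pattern the embryonic limb bud, with FGF signals passing between epidermis and mesenchyme.

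At 20 DPA 2008 probes were higher (10.0% of those tested) and 1437 were lower (7.17%), 17.2% in either direction. A probe was called where limma's moderated test gave a Benjamini-Hochberg adjusted p under 0.05 and the means differed by at least 0.58 on the log2 scale, or 1.5-fold. Values are log2 intensities normalised by RMA, and they ran from 2.66 to 15.12. The 10 array medians lay between 5.73 and 5.82. Pearson correlations over all probes were 0.978 to 0.992 within 2 DPA, 0.983 to 0.988 within 20 DPA and 0.93 to 0.965 between the times, described across probes, which are not independent. The median difference over all probes was 0.034.

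Rises were more numerous and falls were larger. The median rise among the called probes was 0.86 and the median fall was -1.17. A difference of at least 2 on the log2 scale was reached by 123 higher and 370 lower probes, of at least 4 by 4 and 118, and of at least 6 by 0 and 47. The ranges of the 5 arrays did not overlap for 1633 of the higher and 1118 of the lower probes, and for 21.5% of all probes tested.

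**Figure D1:**
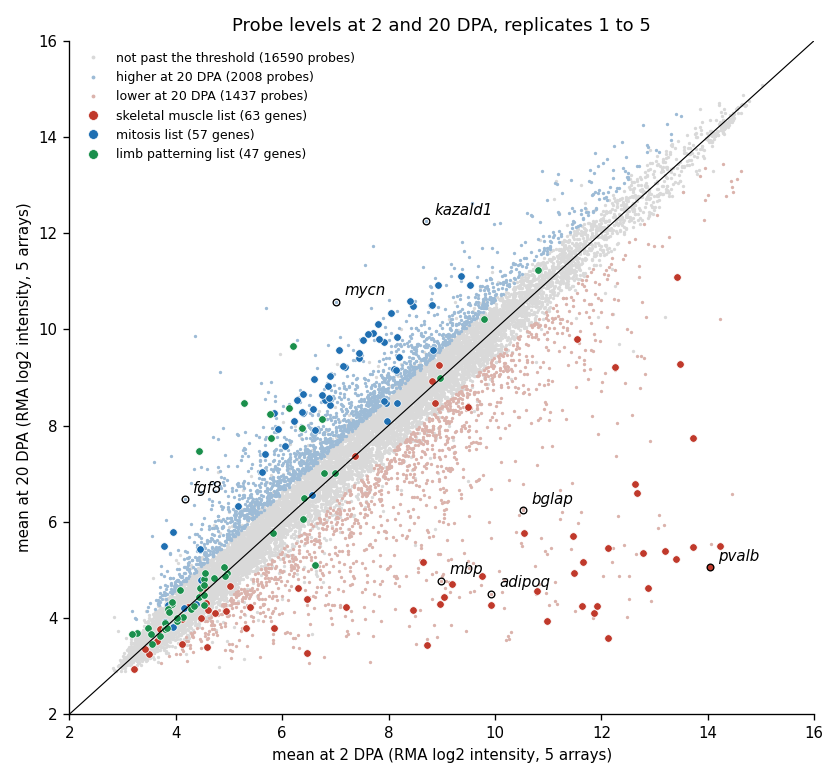
Mean RMA log2 intensity of each of 20035 probes at 2 DPA (x axis) and at 20 DPA (y axis), 5 arrays each, with the line of equal level. Pale blue and pale red points are probes called higher (2008) and lower (1437). Large red points are the skeletal muscle list, large blue points the mitosis list and large green points the limb patterning list. Most muscle genes lie far below the line, most mitosis genes lie above it, and *pvalb* is farthest from it.

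Genes were also described in 41 lists of known function, each gene by its brightest probe. A member counts as measured where the annotation used here gives its symbol to a probe. Over the brightest probes of all 8639 named genes 10.4% rose, 7.30% fell and the median difference was 0.026, and list counts are to be read against these shares. No list was tested as a set. Where a list is given with 0 calls in a direction, 0 to 12 of its members had an unadjusted p under 0.05 in that direction by limma, 0 or 1 of them by 1.5-fold, and the methods' t test called 0. Where leaving out a single array moves a count more than 1.5 times, the count without it is given.

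**Figure D2:**
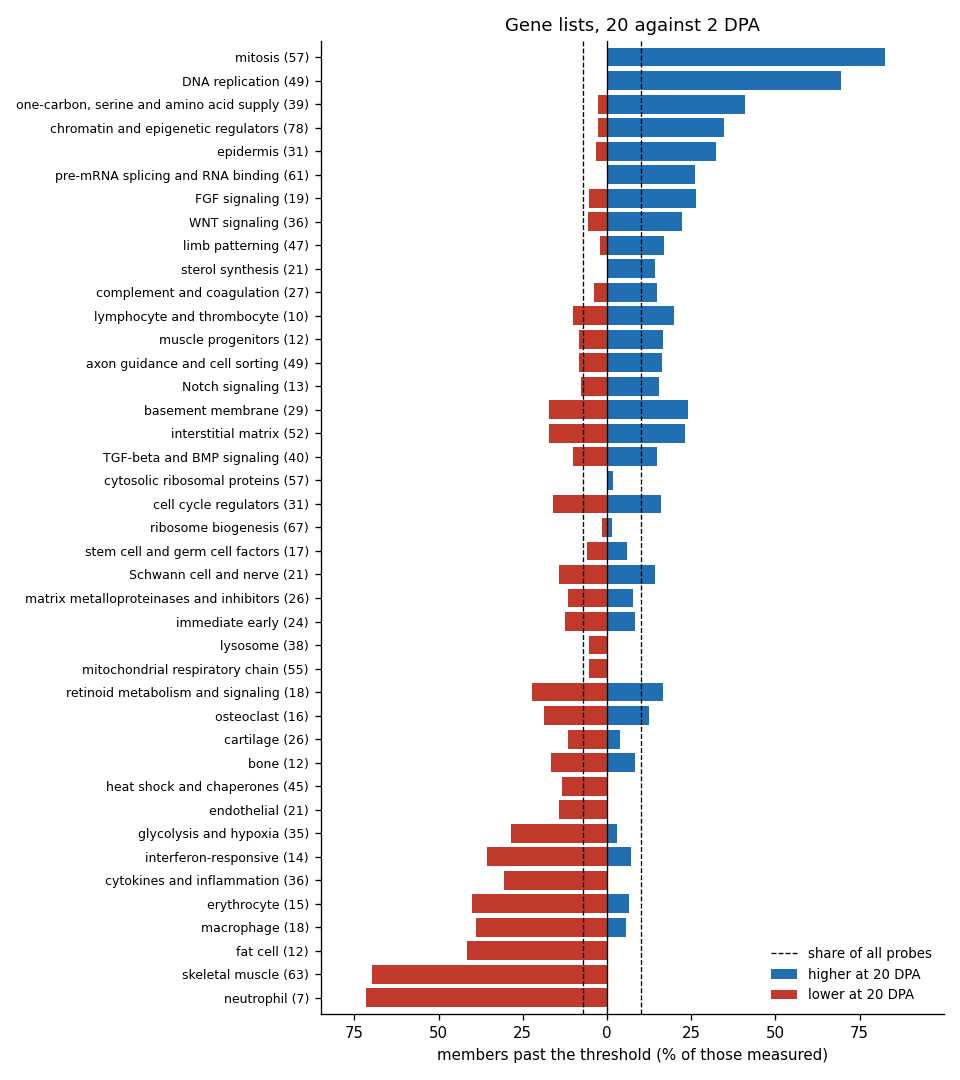
Percent of the measured members of each list (number in parentheses) that were called higher (blue, to the right) or lower (red, to the left) at 20 than at 2 DPA. Dashed lines mark the shares over all probes, 10.0% higher and 7.17% lower. The mitosis and DNA replication lists stand highest, and the skeletal muscle and neutrophil lists have the largest shares lower.

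Skeletal muscle genes had the largest differences. Of 63 measured members of the muscle list, 44 fell, 0 rose and 19 did not pass, and the median difference was -3.03. Among named genes called with no overlap between the groups, the 12 with the largest falls belong without exception to the muscle list. Parvalbumin (*pvalb*), which buffers calcium in fast fibres, measured 12.59, 14.60, 13.87, 14.54 and 14.62 in replicates 1 to 5 at 2 DPA and 7.01, 4.12, 4.09, 5.18 and 4.88 at 20 DPA. The groups did not come near each other, and at each time replicate 1 stood apart from the rest, lowest at 2 DPA and highest at 20 DPA. The fall was 8.99 ± 0.57 (SE), 508-fold, with adjusted p = 4.2e-06 (limma, n = 5 and 5). In bulk tissue fewer fibres, less RNA per fibre and a smaller share of stump tissue in the later samples cannot be told apart.

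Muscle creatine kinase (*ckm*), which regenerates ATP for contraction, gave 12.81, 14.11, 13.59, 14.46 and 13.60 at 2 DPA against 7.23, 5.57, 4.13, 5.33 and 5.09 at 20 DPA. It fell by 8.25 ± 0.50 (adjusted p = 3.0e-06). The fast troponins *tnnt3* (fell by 8.54), *tnni2* (fell by 8.26) and *tnnc2* (fell by 7.79) belong to the calcium switch of the thin filament, and the slow and cardiac form *tnnc1* fell by 7.68. Myosin light chains *myl1* and *myl3* fell by 8.73 and 8.18, the sarcomeric actin *actc1* by 7.76, and the giant spring protein titin (*ttn*) by 7.43. Without 20 DPA replicate 1, in which both were highest, *myl1* fell by 9.55 and *ttn* by 8.08, and without 2 DPA replicate 1, in which it was lowest, *actc1* fell by 8.35. The Z-disc protein gene *myoz1* and the thick filament gene *mybpc1* fell by 7.39 and 7.03.

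At 20 DPA most of the muscle list lay low on the array. Of its 63 members, 51 were below the median probe (5.83) and 20 were under the 25th percentile of probe means (4.17), against 20 and 8 at 2 DPA. The mean level over the list was 7.79, 9.13, 8.31, 8.94 and 9.16 in the 2 DPA arrays and 5.73, 5.20, 4.88, 5.04 and 4.99 in the 20 DPA arrays. Falls of genes that end near the floor are compressed, and the deposited table holds no detection calls.

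The list of muscle precursor genes gave few calls. Of 12 measured members, 2 rose (16.7%, against 10.4% of all named genes) and 1 fell (8.33%, against 7.30%). The count that fell was 2 without 2 DPA replicates 1 or 3. In replicates 6 to 10, 2 rose and 3 fell. Myogenin (*myog*), which drives the differentiation of myoblasts, measured 6.10 to 7.58 at 2 DPA and 4.11 to 4.55 at 20 DPA, a fall of 2.52 ± 0.26 (adjusted p = 6.6e-05). M-cadherin (*cdh15*), an adhesion molecule of satellite cells and myoblasts, gave 4.24, 4.33, 4.35, 4.76 and 3.79 at 2 DPA and 6.94, 6.48, 7.13, 6.87 and 6.59 at 20 DPA. All 20 DPA limbs were above all 2 DPA limbs, and the rise was 2.51 ± 0.18 (adjusted p = 7.1e-06). *eya2*, a transcriptional coactivator used in myogenesis, rose by 1.03, and the early myogenic factor *myf5* did not pass (-0.63 ± 0.24, adjusted p = 0.071). In replicates 6 to 10 *myf5* was called lower (-0.66, limma adjusted p = 4.0e-04).

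Proliferation genes rose broadly. Of 57 measured mitosis genes, 47 rose and 0 fell, with a median of 1.75. Of 49 DNA replication genes, 34 rose and 0 fell, with a median of 0.84. The mean level over the mitosis list was 6.33 to 7.18 in the 2 DPA arrays and 8.02 to 8.49 in the 20 DPA arrays, so the groups did not overlap.

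*mycn* is a transcription factor that drives growth and cell division in embryonic progenitors. Among named genes called with no overlap between the groups, it had the largest rise. It measured 7.24, 6.90, 6.75, 7.76 and 6.42 at 2 DPA and 10.86, 10.52, 10.49, 10.81 and 10.21 at 20 DPA. Every 20 DPA limb was more than 2 log2 units above the highest 2 DPA limb, and the rise was 3.56 ± 0.23, 11.8-fold (adjusted p = 4.5e-06).

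Among the genes that move chromosomes, *kif22* rose by 2.50, the kinetochore gene *cenpf* by 2.42, *kif20a* by 2.37 and *incenp*, a scaffold of the chromosomal passenger complex, by 2.31. The microtubule depolymerase *kif2c* measured 5.86, 6.10, 5.56, 5.55 and 6.57 at 2 DPA and 7.36, 7.86, 8.19, 8.22 and 7.99 at 20 DPA. It rose by 2.00 ± 0.22 (adjusted p = 1.0e-04). *top2a*, which untangles DNA before chromosomes separate, rose by 1.75, and the mitotic kinase gene *melk* by 2.68. At 2 DPA replicates 3 and 4 were lowest for *kif22*, *cenpf*, *kif20a* and *melk*.

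Rises among the replication genes ran from under 1 to near 3 log2 units. Thymidine kinase (*tk1*) and *rrm1*, which supply deoxynucleotides, rose by 2.75 and 1.75, and the polymerase subunit genes *pole2* and *pola2* by 2.26 and 1.72. The sliding clamp *pcna* was already at 11.48 to 11.86 at 2 DPA and lay at 12.13 to 12.64 at 20 DPA, a rise of 0.66 ± 0.11 (adjusted p = 0.0015). The helicase subunit gene *mcm2* rose by 0.58, at the threshold, and its difference was 0.55, 0.57 and 0.51 without 2 DPA replicate 3, 20 DPA replicate 3 and 20 DPA replicate 4, each under the threshold.

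Of 31 other cell cycle regulators, 5 rose and 5 fell (3 fell without 2 DPA replicate 1). The risers included cyclin E2 (*ccne2*, 1.58), which starts S phase, the E2F partner *tfdp1* (1.25) and the pocket protein *rbl1* (1.42). Cyclin G1 (*ccng1*), a p53 target, was 11.22 to 11.90 at 2 DPA and 9.46 to 10.07 at 20 DPA and fell by 1.87 ± 0.15 (adjusted p = 1.6e-05). *e2f4*, an E2F known for repression in resting cells, fell by 1.45, and the growth arrest gene *gadd45g* fell by 1.38.

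Limb patterning genes were mostly not past the threshold, and some transcription factors rose. Of 47 measured members, 8 rose (17.0%, against 10.4% of all named genes), 1 fell (2.13%, against 7.30%) and 38 did not pass. *lhx2*, a LIM homeobox gene of limb mesenchyme that takes part in outgrowth of the chick and mouse limb bud, measured 5.09, 5.27, 5.10, 5.94 and 5.00 at 2 DPA and 8.88, 8.22, 8.33, 8.86 and 8.02 at 20 DPA. The groups did not overlap, and the rise was 3.18 ± 0.22, 9.07-fold (adjusted p = 5.4e-06). Its relative *lhx9* rose by 3.03 ± 0.35, from 3.90 to 5.30 at 2 DPA to 6.78 to 8.38 at 20 DPA.

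*tbx5*, the T-box factor that specifies the forelimb field, was 5.66, 6.17, 5.30, 5.97 and 5.77 at 2 DPA and 8.43, 7.87, 8.72, 8.55 and 7.63 at 20 DPA. It rose by 2.46 ± 0.23 (adjusted p = 3.5e-05). *gli3*, a mediator of hedgehog signalling that patterns the digits, rose by 2.22, *dlx6* by 1.96, the dorsal identity gene *lmx1b* by 1.58 and *emx2* by 1.40. The eighth riser counted on the list was *fbln1*, a matrix gene (rise 3.44), whose other, dimmer probe did not pass (0.58, limma adjusted p = 0.35). *osr1*, a connective tissue transcription factor, fell by 1.51 ± 0.24, from 5.77 to 7.42 at 2 DPA to 5.00 to 5.33 at 20 DPA. *hoxa13*, the gene of the hand region, was 3.08 to 3.37 at 2 DPA, and at 20 DPA measured 3.59, 3.44, 4.59, 3.24 and 3.61, so that replicate 3 was highest, replicate 4 lay within the early range and the other late limbs lay just above it. It did not pass here (0.43 ± 0.21, adjusted p = 0.17). *hoxa13* was called higher in replicates 6 to 10 (0.74, adjusted p = 0.035) and at 22 against 1.5 DPA (0.99, adjusted p = 0.0027).

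Of 19 measured FGF pathway genes, 5 rose and 1 fell (2 without 2 DPA replicate 3). *fgf8*, a growth factor of the limb bud that in the axolotl is made in blastema mesenchyme, measured 3.71, 4.17, 4.25, 4.37 and 4.37 at 2 DPA, near the floor, and 5.87, 6.09, 6.81, 7.39 and 6.16 at 20 DPA. It rose by 2.29 ± 0.27, 4.89-fold (adjusted p = 1.5e-04), with no overlap. The FGF target gene *etv4* rose by 2.21, *flrt3* by 1.57 and the feedback inhibitor *spry1* by 1.20, while *fgf9* rose by 0.73 and stayed at 3.74 to 4.55. The receptor gene *fgfr3* fell by 0.89.

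Other signalling lists had calls in both directions. The shares higher and lower were 22.2% and 5.56% for WNT, 15.0% and 10.0% for TGF-beta and BMP, and 15.4% and 7.69% for Notch. Over all named genes these shares were 10.4% and 7.30%. Of 36 WNT genes 8 rose and 2 fell, the latter count going to 4 without 20 DPA replicate 2 and to 1 without 2 DPA replicates 1 or 4 or 20 DPA replicates 3, 4 or 5. The planar polarity gene *prickle1* rose by 1.58 and its paralog *prickle2* fell by 1.13. The R-spondin receptor *lgr4* rose by 1.34, and the WNT effector *lef1* lay at 4.63 to 5.07 in all 10 arrays (-0.02 ± 0.10, adjusted p = 0.89).

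Of 40 TGF-beta and BMP genes 6 rose and 4 fell (2 without 2 DPA replicate 2). *id3*, a BMP target, rose by 1.53 ± 0.21 and *bmp2* by 0.69 ± 0.22. The *bmp2* call (adjusted p = 0.036) was lost, at 0.55 to 0.71, without 2 DPA replicates 2, 3 or 5 or 20 DPA replicates 1, 2 or 5. *skil*, an inhibitor of SMAD signalling, was 9.74 to 10.31 at 2 DPA and 8.17 to 8.69 at 20 DPA and fell by 1.63 ± 0.14 (adjusted p = 2.2e-05). The BMP antagonist *chrdl1* fell by 2.29 ± 0.53, and its 2 DPA values spread from 5.26 in replicate 1 to 8.40 in replicate 2. *tgfb1* did not pass (-0.37 ± 0.24).

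Of 13 Notch genes 2 rose and 1 fell. The ligand *dll1* rose by 0.82 ± 0.18, and *lfng*, a modifier of the receptor, fell by 1.03 ± 0.10 (adjusted p = 4.6e-05). The target *hes1* rose by 0.70 with adjusted p = 0.047, a call that was lost in 7 of the 10 fits that left out an array, and 1 riser was then left: the fits were those without 2 DPA replicates 2, 4 or 5 or 20 DPA replicates 2, 3, 4 or 5. *notch1* and *jag1* differed by 0.03 ± 0.16 and 0.05 ± 0.25.

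*kazald1*, a secreted protein gene of the IGF-binding protein family that is known from the axolotl blastema, measured 8.45, 9.26, 7.99, 9.60 and 8.19 at 2 DPA and 13.29, 13.23, 11.29, 12.18 and 11.24 at 20 DPA. It rose by 3.55 ± 0.47, 11.7-fold (adjusted p = 3.2e-04). The 20 DPA limbs spread over more than 2 log2 units, with replicates 1 and 2 highest. Other large rises were of *adamtsl2* (3.06), a microfibril-binding protein gene, the protocadherin *pcdh18* (2.76), the sulfate transporter *slc13a4* (2.75) and the nuclease *dnase1l3* (3.11), whose second probe fell by 1.45.

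Matrix genes moved in both directions, and members of the same family could go opposite ways. Of 52 interstitial matrix genes 12 rose and 9 fell. Fibrillin 1 (*fbn1*), the main microfibril protein of adult tissue, measured 11.55, 12.60, 11.68, 12.26 and 12.28 at 2 DPA and 9.74, 9.34, 8.94, 9.04 and 8.42 at 20 DPA. It fell by 2.97 ± 0.26 (adjusted p = 2.7e-05). Fibrillin 2 (*fbn2*), which in mammals prevails in the embryo, went the other way, from 8.59, 9.70, 8.46, 10.07 and 10.03 to 12.39, 12.11, 11.98, 11.75 and 10.79, a rise of 2.43 ± 0.39 (adjusted p = 9.5e-04). The 4 other probes of *fbn2* did not pass, with differences from -0.38 to 0.17.

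*cthrc1*, a secreted collagen-related protein gene, was 9.87 to 10.07 at 2 DPA and 11.62 to 12.52 at 20 DPA and rose by 2.20 ± 0.15 (adjusted p = 5.3e-06). The microfibril gene *mfap2* rose by 1.38 and fibronectin (*fn1*) by 1.46, and periostin (*postn*), an adhesive matrix protein, rose by 1.64 with 20 DPA replicate 5 (9.68) among the 2 DPA values. Tenascin XB (*tnxb*), found in mature loose connective tissue, fell by 3.39 ± 0.29, and *aspn*, a small leucine-rich proteoglycan, fell by 2.61. Tenascin C (*tnc*), the tenascin of wounds and blastemas, was at 12.73 to 13.48 at 2 DPA and 13.22 to 13.96 at 20 DPA, a difference of 0.56 ± 0.18 that missed the fold threshold (adjusted p = 0.039). The same held for the brightest probe of *col1a1* (-0.56 ± 0.17, adjusted p = 0.034). A second *col1a1* probe, with a mean of 12.66 at 2 DPA, differed by 0.07 (limma adjusted p = 0.82).

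In the basement membrane 7 of 29 genes rose and 5 fell (3 without 20 DPA replicate 3). Laminin alpha 1 (*lama1*), the alpha chain of embryonic laminin, measured 5.75, 5.75, 5.65, 6.41 and 4.84 at 2 DPA and 8.93, 8.62, 8.59, 8.82 and 7.78 at 20 DPA, a rise of 2.87 ± 0.28 (adjusted p = 5.3e-05). Laminin alpha 2 (*lama2*), the alpha chain around muscle fibres and Schwann cells, fell by 2.25 ± 0.35. The general collagen IV chains *col4a1* and *col4a2* fell by 1.81 and 1.78, whereas *pxdn*, the peroxidase that cross-links collagen IV, rose by 1.94. *col17a1*, an anchor of basal epidermis, lay at 12.42 to 13.43 throughout and did not pass (0.32 ± 0.17).

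Of 26 matrix metalloproteinase and inhibitor genes 2 rose and 3 fell. Gelatinase A (*mmp2*) measured 12.69, 12.69, 12.73, 12.76 and 13.38 at 2 DPA and 11.48, 12.34, 8.47, 9.88 and 9.09 at 20 DPA. The early limbs were nearly alike, whereas the late limbs spread over almost 4 log2 units with replicates 1 and 2 nearest to the early level. The fall was 2.59 ± 0.64 (adjusted p = 0.011). A second probe, dimmer over the 10 arrays together, had a mean of 10.43 at 2 DPA and rose by 0.91. At 20 DPA this second probe was the brighter one, so the direction for *mmp2* depends on the probe. The inhibitor gene *timp1* fell by 1.25 and *mmp19* by 1.16.

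Skeletal genes gave few calls and wide spreads. Of 26 cartilage genes 1 rose and 3 fell. Without 2 DPA replicate 2 these counts were 3 and 1, while 2 rose without 2 DPA replicate 5 and 1 fell without 20 DPA replicates 3 or 5. The rising gene was N-cadherin (*cdh2*), used in mesenchymal condensation (rise 1.82 ± 0.17). Aggrecan (*acan*), the main cartilage proteoglycan, fell by 2.05 ± 0.30 from 9.42 to 9.96 at 2 DPA. Type II collagen (*col2a1*) did not pass, and its 2 DPA values of 7.80, 10.51, 7.15, 8.32 and 9.79 enclosed all of the 20 DPA values, 9.38, 8.40, 10.19, 9.93 and 9.27. *sox9*, the cartilage master regulator, lay at 3.74 to 4.14 in all arrays, so its probe gives no level well above the floor.

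Of 12 bone genes 1 rose, *postn*, and 2 fell. The count that fell was 1 without 2 DPA replicates 2 or 4. That count was 3 without 2 DPA replicates 1 or 3 or 20 DPA replicates 1, 3 or 4. Osteocalcin (*bglap*), made by osteoblasts, measured 12.01, 7.40, 12.27, 12.08 and 8.88 at 2 DPA and 7.58, 8.49, 4.68, 5.47 and 4.97 at 20 DPA. It fell by 4.29 ± 1.09 (adjusted p = 0.012) and by 5.07 without 2 DPA replicate 2, whose value lay within the range of the 20 DPA limbs. The arrays low in osteocalcin at 2 DPA, replicates 2 and 5, were those with the highest mean level over the cartilage list (7.23 and 7.22 against 6.15 to 6.56).

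Of 16 osteoclast genes 2 rose and 3 fell, and 1 rose without 2 DPA replicates 2 or 3 or 20 DPA replicate 1. The bone-resorbing protease cathepsin K (*ctsk*) measured 9.55, 7.38, 9.41, 8.39 and 9.00 at 2 DPA and 11.14, 12.04, 6.99, 8.80 and 7.91 at 20 DPA. Replicates 1 and 2 at 20 DPA were above every early limb and replicate 3 was below them, and the gene did not pass (0.63 ± 0.90, adjusted p = 0.66), with -0.03 without 20 DPA replicate 2 and 1.23 without 20 DPA replicate 3. Its other probe rose by 1.93. Tartrate-resistant acid phosphatase (*acp5*) rose by 1.52 ± 0.38 and was also highest in 20 DPA replicates 1 and 2 (7.78 and 8.89). *snx10*, a sorting nexin required by osteoclasts, fell by 2.15 ± 0.24.

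Many genes of inflammatory blood cells fell. The neutrophil list had 7 measured members, of which 5 fell and 0 rose, and several of them are also expressed by macrophages. The authors name probes for further genes of this list that the annotation used here does not name, and these are not counted. Arginase 1 (*arg1*), abundant in myeloid cells, measured 12.52, 13.08, 13.08, 12.57 and 12.88 at 2 DPA and 9.66, 9.34, 9.35, 9.28 and 7.69 at 20 DPA. The fall was 3.76 ± 0.32, 13.6-fold (adjusted p = 2.5e-05). The NADPH oxidase subunit genes *ncf1* and *cybb* fell by 2.53 and 2.07, and lysozyme (*lyz*) fell by 1.65, from 13.60 to 14.19 to 11.57 to 12.98.

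The macrophage list was split. Of 18 members 7 fell, 1 rose and 10 did not pass. *spi1*, the transcription factor PU.1 of the myeloid lineage, was 8.26, 6.96, 7.58, 7.69 and 7.24 at 2 DPA and 5.57, 5.81, 4.94, 5.56 and 5.20 at 20 DPA and fell by 2.13 ± 0.24 (adjusted p = 1.1e-04). *plek* fell by 2.64 and *laptm5* fell by 2.09. The receptor gene *csf1r* (-0.40 ± 0.30), the lysosomal marker *cd68* (-0.03 ± 0.22) and the scavenger receptor *marco* (0.36 ± 0.20) did not pass. *gpnmb*, a glycoprotein gene of phagocytes and osteoclasts, rose by 1.18 ± 0.31 to 11.42 to 12.91. In replicates 6 to 10, 7 macrophage genes fell and *gpnmb* was not called higher.

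Of 36 cytokine and inflammation genes 11 fell and 0 rose. Heme oxygenase 1 (*hmox1*), which degrades heme and is induced by stress, measured 12.16, 11.49, 12.81, 11.98 and 11.60 at 2 DPA and 10.02, 9.30, 8.11, 8.79 and 8.29 at 20 DPA, a fall of 3.11 ± 0.37 (adjusted p = 1.5e-04). The leukotriene enzyme gene *alox5* fell by 2.68, the hyaluronan-binding *tnfaip6* fell by 2.06 and the cytokine brake *socs1* by 1.68. Of 14 interferon-responsive genes 5 fell and 1 rose. The immunoproteasome subunit gene *psmb8* fell by 1.98 and *irf1* by 1.63, and *samhd1* rose by 1.10.

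Of 15 red cell genes 6 fell and 1 rose. *alas2*, the heme synthesis enzyme of red cells, fell by 2.56 ± 0.54, with 20 DPA replicate 1 (8.08) just below the lowest early limb (8.29). *nfe2*, an erythroid and megakaryocyte transcription factor, fell by 2.34 and the ammonium transporter *rhag* by 2.12, while *alad*, an enzyme of heme synthesis in all cells, rose by 0.73. Of 10 lymphocyte and thrombocyte genes 2 rose and 1 fell. The risers were 0 without 2 DPA replicate 5 or 20 DPA replicate 3. They were 2 without 20 DPA replicate 5 and 1 without any other array. The leukocyte antigen *ptprc* lay at 4.30 to 5.21 and did not pass on its brightest probe, and another *ptprc* probe fell by 0.63 (adjusted p = 0.015). *thbs1*, a platelet and wound matrix protein gene, fell by 2.06 ± 0.28. Of 27 complement and coagulation genes 4 rose and 1 fell. The risers were 2 without 2 DPA replicates 2 or 5 or 20 DPA replicates 1 or 4, and 2 fell without 2 DPA replicates 1 or 3 or 20 DPA replicates 1 or 3. The lytic component *c9* fell by 2.46 ± 0.32 and *c3* rose by 1.46 ± 0.35, with another *c3* probe that fell by 1.83.

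Immediate early genes, which respond within minutes to hours, had 2 members higher and 3 lower of 24, and 5 lower without 20 DPA replicate 1. *fos* measured 7.91, 8.58, 9.00, 8.37 and 8.28 at 2 DPA and 9.07, 8.03, 6.47, 7.74 and 5.40 at 20 DPA. The late values enclosed the early ones, and the difference of -1.09 ± 0.57 did not pass (adjusted p = 0.19). *egr1*, at 8.68 to 9.18 and then 6.59 to 9.25, did not pass either (adjusted p = 0.096), and *junb* differed by -0.05 ± 0.22. *klf10*, a TGF-beta-inducible gene, fell by 1.03 and *zfp36l2*, whose protein promotes mRNA decay, rose by 1.62.

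Epidermal genes were high at both times and 10 of 31 rose, with 1 falling (2 without 2 DPA replicate 3 or 20 DPA replicate 2). These counts were less uneven in the other limbs. In replicates 6 to 10, 6 of the 31 rose and 3 fell. In the neighbouring contrast of the same code series, described below, 6 rose and 7 fell. Desmoplakin (*dsp*), the anchor of desmosomes, measured 13.06, 12.62, 13.06, 12.92 and 12.73 at 2 DPA and 13.64, 13.80, 13.95, 13.65 and 13.92 at 20 DPA, a rise of 0.92 ± 0.11 (adjusted p = 1.8e-04). The epithelial transcription factor genes *grhl1*, *grhl2* and *ovol2* rose by 1.38, 1.31 and 1.11. The basal cell factor *tp63* (0.25 ± 0.20) and the cross-linking enzyme gene *tgm1* (0.56 ± 0.36) did not pass.

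Myelin and fat cell genes were among the larger falls. Myelin basic protein (*mbp*) measured 8.83, 7.81, 9.52, 9.87 and 8.89 at 2 DPA and 5.10, 4.21, 4.91, 4.95 and 4.68 at 20 DPA and fell by 4.21 ± 0.34, 18.5-fold (adjusted p = 1.5e-05). Gliomedin (*gldn*), which gathers channels at nodes of Ranvier, fell by 3.16 and the peripheral myelin gene *pmp22* by 1.97. The neurotrophin receptor *ngfr*, a marker of immature and denervated Schwann cells, went from 5.40 to 6.02 up to 6.76 to 7.09, a rise of 1.34 ± 0.12 (adjusted p = 3.5e-05). The neuronal tubulin gene *tubb3* rose by 1.38. The nerve list as a whole had 3 members higher and 3 lower of 21.

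Adiponectin (*adipoq*), a hormone of fat cells, measured 8.30, 10.56, 9.53, 10.53 and 10.74 at 2 DPA and 3.52, 3.65, 5.89, 3.69 and 5.76 at 20 DPA. It fell by 5.43 ± 0.61, 43.0-fold (adjusted p = 1.2e-04), and the 20 DPA limbs lay at 2 levels, near 3.6 in replicates 1, 2 and 4 and near 5.8 in replicates 3 and 5. The retinol carrier *rbp4* fell by 3.60 and *dgat2*, which makes triglycerides, by 3.24, and 5 of 12 fat genes fell. Of 21 endothelial genes 3 fell and 0 rose. *pecam1* (-0.32 ± 0.29), *cdh5* (-0.27 ± 0.33) and the VEGF receptor *kdr* (0.09 ± 0.10) did not pass, and *mmrn1*, a gene of lymphatic vessels and platelets, fell by 1.92 ± 0.36.

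Some stress protein genes were lower. Of 45 chaperone genes 6 fell (13.3%, against 7.30% of all named genes) and 0 rose. The list median was -0.08, and in replicates 6 to 10 it was 0.10, with 8 genes lower. *hspb1* measured 10.18, 11.68, 10.77, 12.10 and 12.40 at 2 DPA and 6.36, 4.82, 5.38, 4.96 and 5.68 at 20 DPA, a fall of 5.98 ± 0.43 (adjusted p = 8.4e-06). Alpha B-crystallin (*cryab*) fell by 5.59 ± 0.24 (adjusted p = 7.3e-07). Both small heat shock proteins are abundant in muscle, whose list fell between the same arrays, and the part of muscle in these falls was not tested. The cytosolic chaperone *hsp90aa1* was 8.58 to 9.04 and then 5.56 to 6.28 and fell by 2.96 ± 0.15, the ER chaperone *hspa5* fell by 0.99, and the brightest *hspa8* probe did not pass (0.17 ± 0.06), while 2 dimmer *hspa8* probes fell by 1.23 (adjusted p = 0.039) and 0.97 (adjusted p = 0.0037).

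Chromatin genes rose in 27 of 78 cases and fell in 2, with a median of 0.35. *smarca4*, the ATPase of the SWI/SNF remodelling complex, measured 8.76, 8.20, 8.17, 8.61 and 8.36 at 2 DPA and 9.74, 9.61, 9.91, 9.98 and 9.85 at 20 DPA, a rise of 1.40 ± 0.13 (adjusted p = 3.4e-05). The Polycomb methyltransferase *ezh2* rose by 0.73 and *hmgb3*, a chromosomal protein of progenitor cells, by 1.88. *hmga1*, an architectural chromatin protein gene, fell by 2.36 ± 0.23, from 8.10 to 9.16 to 6.08 to 6.87. *hdac1* (0.54) and the maintenance methyltransferase *dnmt1* (0.43) passed the p threshold but not the fold threshold.

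Of 17 stem cell and germ cell genes 1 rose and 1 fell (5.88% each). *sall4*, a zinc finger gene of stem cells, did not differ beyond its spread (0.02 ± 0.37), with 8.08 to 9.58 at 2 DPA and 8.31 to 9.93 at 20 DPA. The RNA-binding protein gene *msi1*, known from neural progenitors, rose by 1.84 ± 0.23.

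Splicing genes rose in 16 of 61 cases and fell in 0, with a median of 0.40. *hnrnpa1* rose by 1.61 ± 0.40, with 6.69 to 9.00 at 2 DPA. The machinery of protein synthesis gave few calls. Of 57 ribosomal protein genes 1 rose and 0 fell, and of 67 ribosome biogenesis genes 1 rose and 1 fell, with at most 2 in either direction in any fit that left out an array. *rplp0* lay at 14.02 to 14.28 and *rpl3* at 14.14 to 14.30 in all arrays, with differences of -0.08 ± 0.07 and 0.06 ± 0.06, and a second, dimmer *rpl3* probe fell by 2.85. Nucleolin (*ncl*) was the rising gene in ribosome biogenesis (1.38 ± 0.43), a call that was lost without 2 DPA replicate 1 or any 20 DPA replicate, leaving 0 risers in the fits without a 20 DPA replicate. *npm1* and *fbl* differed by 0.01 ± 0.07 and 0.05 ± 0.10.

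Of 39 genes of serine, one-carbon and amino acid supply 16 rose and 1 fell, with a median of 0.43. In replicates 6 to 10 the counts were 10 and 3 and the median was 0.13, with 8 risers common to both sets. The serine synthesis enzyme genes *phgdh*, *psat1* and *psph* rose by 1.36, 1.65 and 1.69, and *phgdh* measured 9.65, 8.71, 9.04, 9.63 and 8.28 at 2 DPA against 10.32 to 10.60 at 20 DPA. Asparagine synthetase (*asns*) was slightly lower (-0.50 ± 0.10) and under the fold threshold.

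Of 35 glycolysis and hypoxia genes 10 fell and 1 rose. *eno3* and *pygm*, the muscle forms of enolase and glycogen phosphorylase and also members of the muscle list, fell by 2.32 and 1.72. *aldoa* fell by 1.26, *pgk1* by 0.79 and *ldha* by 0.68, and the last was -0.57, under the threshold, without 20 DPA replicate 4. Of 55 respiratory chain genes 0 rose and 3 fell, 1 without 20 DPA replicate 3 or 2 DPA replicate 4 and 5 without 2 DPA replicate 1. Of 21 sterol synthesis genes 3 rose (14.3%, against 10.4% of all named genes) and 0 fell, with a median of 0.05. *sqle* and *cyp51a1* differed by 0.17 ± 0.27 and 0.25 ± 0.26. The other limbs differed here, since in replicates 6 to 10, 7 sterol synthesis genes rose and the list median was 0.57. In the lysosome list 2 of 38 fell. *ctsh* fell by 3.43, whereas *lamp1* (-0.12 ± 0.09) and *ctsd* (0.16 ± 0.09) did not pass.

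Retinoic acid given to a regenerating salamander limb makes the regrown part more proximal. Of 18 retinoid genes 3 rose and 4 fell (2 without 2 DPA replicate 4 or 20 DPA replicate 5). The receptor gene *rarg* measured 7.08, 6.03, 6.10, 6.85 and 6.32 at 2 DPA and 7.85, 8.11, 8.19, 8.12 and 7.83 at 20 DPA, a rise of 1.54 ± 0.20 (adjusted p = 2.7e-04), and the binding protein gene *crabp2* rose by 1.83 ± 0.34. The synthesis enzyme gene *aldh1a2* lay at 2.94 to 3.28, at the floor of the array. Of 49 axon guidance and cell sorting genes 8 rose (16.3%, against 10.4% of all named genes) and 4 fell (8.16%, against 7.30%). The list median was -0.038. In replicates 6 to 10, 7 rose and 5 fell, with 5 risers common to both sets. Among the risers, *sema3e* rose by 2.07, *robo1* by 1.91, *epha7* by 1.57 and *slit2*, which encodes a ligand of ROBO receptors, by 0.86. The other probes of *robo1* (0.18 and 0.04) and of *epha7* (-0.01) did not pass.

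Probes without a symbol took part in the contrast as well, since 1187 of the higher and 735 of the lower probes have a symbol and the rest do not. The called probe with the largest rise, axo06032-f_at, measured 4.12, 4.09, 4.92, 4.35 and 4.34 at 2 DPA and 6.88, 9.76, 8.39, 11.52 and 12.76 at 20 DPA. The early limbs were alike and the late limbs spread over almost 6 log2 units, with a rise of 5.50 ± 0.92 (adjusted p = 0.0012). The rise was 6.24 without 20 DPA replicate 1 and 4.77 without 20 DPA replicate 5. The annotation used here gives this probe no symbol, so it is in none of the lists, whereas the authors name it as *krt5*, a keratin gene of basal epidermis. Probe axo30681-f_at rose by 4.75, and axo13329-f_at and axo31635-f_at fell by 8.52 and 8.45.

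The 20 DPA limbs differed among themselves in their mean levels over several cell type lists. Replicates 1 and 2 had the highest mean level over the macrophage list (9.11 and 9.14 against 8.35, 8.70 and 8.28 in replicates 3, 4 and 5), over the osteoclast list (6.90 and 7.21 against 6.47 to 6.60) and over the bone list (8.85 and 8.75 against 8.10 to 8.46). Replicate 1 was also highest over the muscle list (5.73 against 4.88 to 5.20). Over the mitosis list replicates 1 and 2 were lowest (8.02 and 8.15 against 8.44 to 8.49). These limbs were the same that were highest for *kazald1*, *mmp2*, *ctsk*, *acp5* and *fn1*, and the part of tissue content in those values was not tested. Among the 2 DPA limbs replicate 1 was lowest over the muscle list (7.79 against 8.31 to 9.16), and replicates 2 and 5 were highest over the cartilage list.

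**Figure D3:**
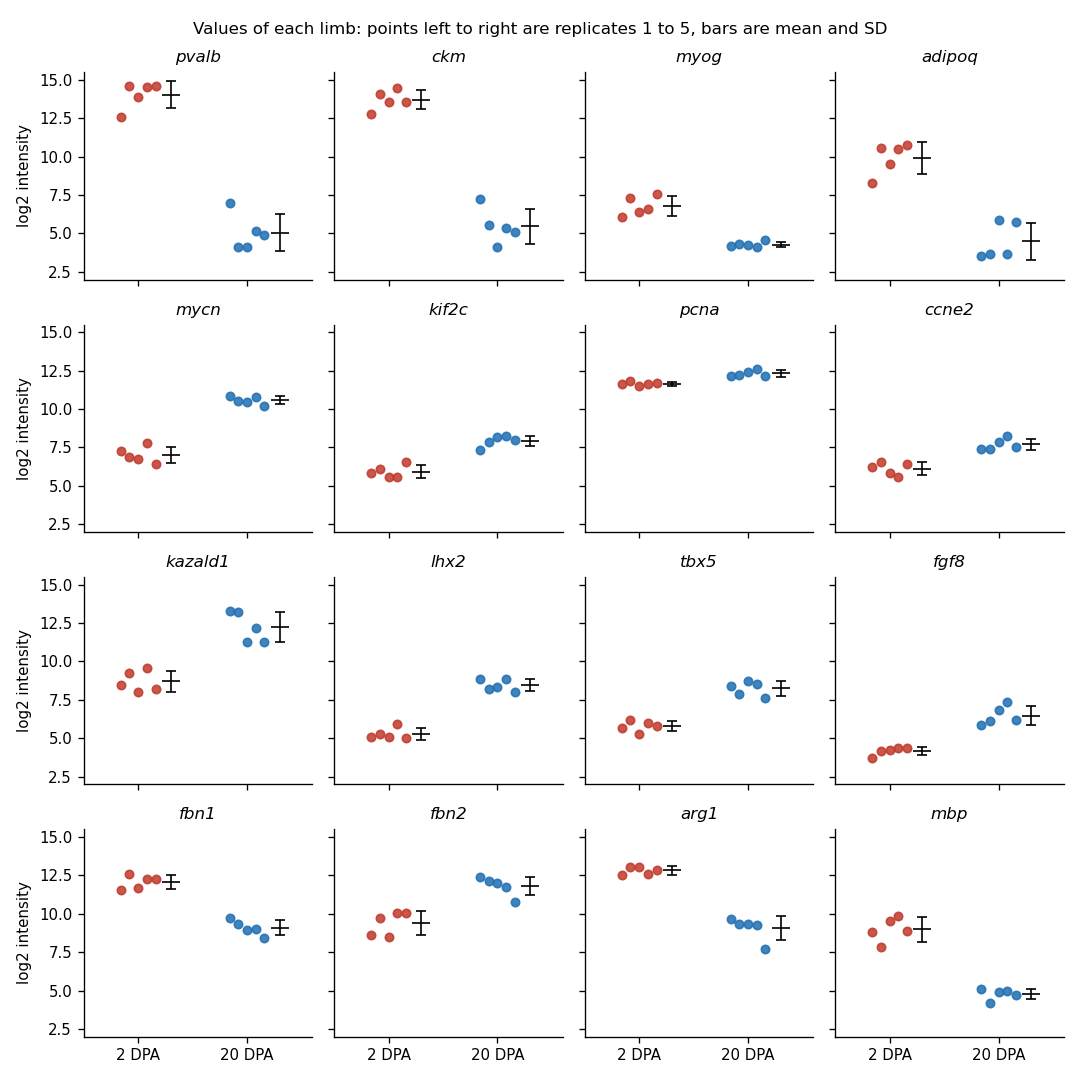
RMA log2 intensity of 16 genes in each limb at 2 DPA (red) and 20 DPA (blue). Points from left to right are replicates 1 to 5, and the bars are mean and SD (n = 5). The groups are apart for all 16 genes, and the late limbs spread most for *kazald1*, *adipoq*, *pvalb* and *ckm*.

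The BLP codes also cover 5 limbs at each of 0, 0.5, 1, 1.5, 22, 24, 26 and 28 DPA, which places the contrast in its course. These values are a description with no test, since the 2 and 20 DPA limbs are those of the contrast. Of the 2008 probes higher at 20 DPA, the mean of the uninjured limbs at 0 DPA was nearer to 2 DPA for 1522 (75.8%) and nearer to 20 DPA for 486 (24.2%). Of the 1437 lower probes it was nearer to 2 DPA for 935 (65.1%) and nearer to 20 DPA for 502 (34.9%). For 709 of the lower probes (49.3%) the uninjured mean was above both.

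These positions separate genes that a list of rises holds together. In the uninjured limb, the stump and the bud *mycn* stood at means of 8.40, 7.01 and 10.58 and *lhx2* at 5.56, 5.28 and 8.46, so both ended above the uninjured limb. *tbx5* stood at 7.85, 5.77 and 8.24, *cdh2* at 7.65, 5.58 and 7.40, *pcdh18* at 9.17, 7.09 and 9.85, and *spry1* at 7.91, 6.57 and 7.77. For *tbx5*, *cdh2* and *spry1* the 20 DPA mean thus lay within 0.4 log2 of the uninjured mean, and the low value was that of the wounded stump.

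Falls had the same variety. In the same order *ckm* stood at 14.47, 13.71 and 5.47, and *mbp* at 11.07, 8.98 and 4.77, so that, counted in log2 units, the larger part of each fall came after 2 DPA. *spi1* stood at 5.35, 7.54 and 5.41, *arg1* at 7.72, 12.83 and 9.06 and *acan* at 5.92, 9.68 and 7.63, and these were raised in the stump over the uninjured limb. By the probe that fell, *mmp2* stood at 10.76, 12.85 and 10.25 and then declined to 7.56 at 26 DPA. *sall4*, level between 2 and 20 DPA (8.97 and 8.99), stood at 4.33 in the uninjured limb.

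At 22, 24, 26 and 28 DPA the means of *fgf8* were 7.10, 6.75, 4.57 and 5.30, and *mycn* was 9.10 to 9.48 from 24 DPA. *lhx2* stayed between 8.14 and 8.94. The probe axo06032-f_at went on to 13.78 at 26 DPA.

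**Figure D4:**
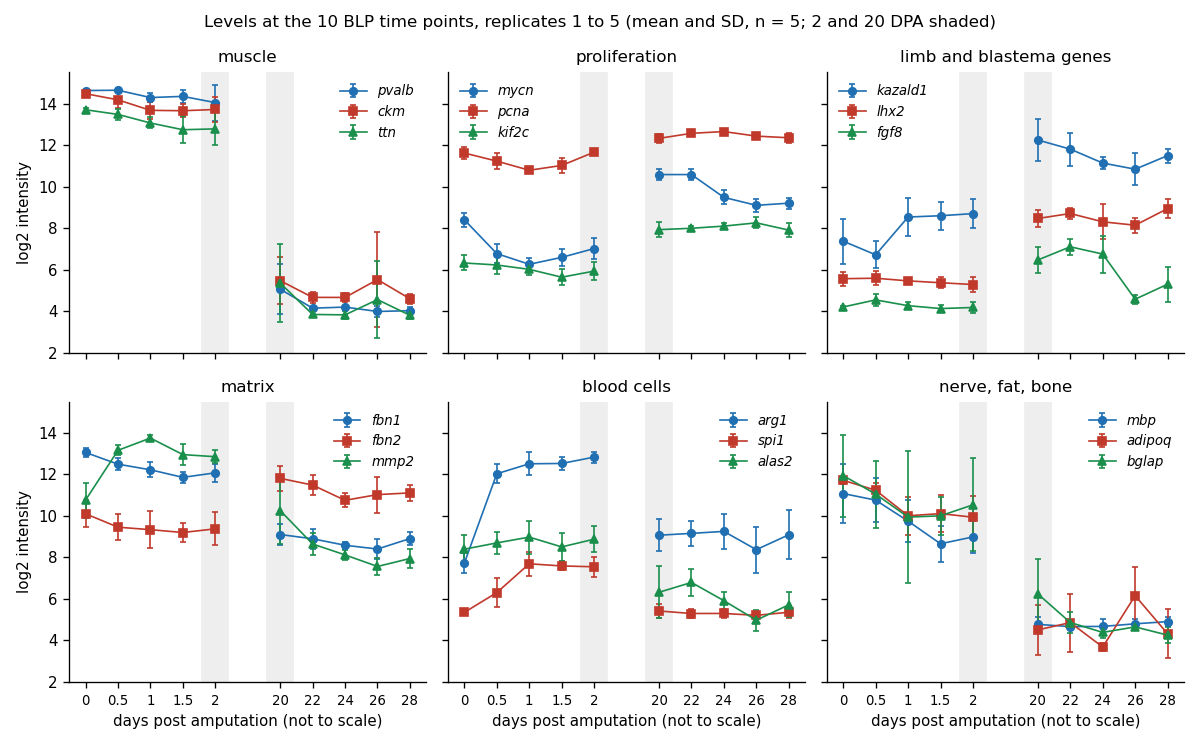
Mean and SD (n = 5) of the RMA log2 intensity of 18 genes at the 10 time points of the code series, 0 to 2 and 20 to 28 DPA (x axis not to scale, with a gap where the series has other codes). The compared times are shaded. Muscle gene means are high up to 2 DPA and below the median probe (5.83) from 20 DPA. The limbs spread widely at 20 DPA, and for *ckm* and *ttn* also at 26 DPA (SD 2.28 and 1.85). *arg1* and *spi1* are raised at 2 DPA against 0 DPA.

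In replicates 6 to 10, which share no array with the contrast, 10.4% of probes were called higher and 7.67% lower at 20 than at 2 DPA. Of the 2008 probes higher in replicates 1 to 5, 1257 (62.6%) were called higher there as well, 749 were not called and 2 were called lower. Of the 1437 lower probes 1036 (72.1%) were called lower, 401 were not called and 0 were called higher. The sign was the same for 96.7% of the higher and 96.7% of the lower probes. In these limbs the code letters change with time.

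The list counts of replicates 6 to 10 were close for proliferation and muscle. There 47 mitosis genes rose (46 of them in both sets), 38 DNA replication genes rose (32 in both) and 45 muscle genes fell (44 in both), and all 5 neutrophil genes that fell did so in both. *mycn* rose by 3.07, *lhx2* by 2.46 and *fgf8* by 1.66, and *pvalb* fell by 9.95. *kazald1* rose by 1.84, from 6.76 to 8.17 at 2 DPA to 8.90 to 9.92 at 20 DPA, and the difference between the sets of -1.71 did not pass (adjusted p = 0.21).

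Skeletal and matrix lists differed more in their counts, and so did those of sterol synthesis and of amino acid supply. In replicates 6 to 10 7 cartilage genes rose and 6 fell, and 5 interstitial matrix genes rose and 15 fell. Of the serine, one-carbon and amino acid genes 10 rose (8 of them in both sets) and 3 fell there, and 7 sterol synthesis genes rose. *ctsk* fell by 3.10 there, *mmp2* by 5.22 and *col2a1* rose by 2.19, and none of these passed the test of the difference between the sets (adjusted p = 0.14, 0.10 and 0.41). *fn1*, *acp5*, *samhd1*, *psat1* and *shmt2*, which rose in replicates 1 to 5, had differences of -0.58, -0.04, -0.02, -1.38 and -0.11 in replicates 6 to 10, with no call. In the fit of both sets together the difference between the sets passed an adjusted p of 0.05 for 39 probes (0.195%). *osr1*, at 5.21 to 5.71 and then 5.09 to 5.70 in replicates 6 to 10, gave -0.05 there (difference between sets 1.46, adjusted p = 0.043), and *thbs1* fell by 3.78 there (difference between sets -1.71, adjusted p = 0.043).

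**Figure D5:**
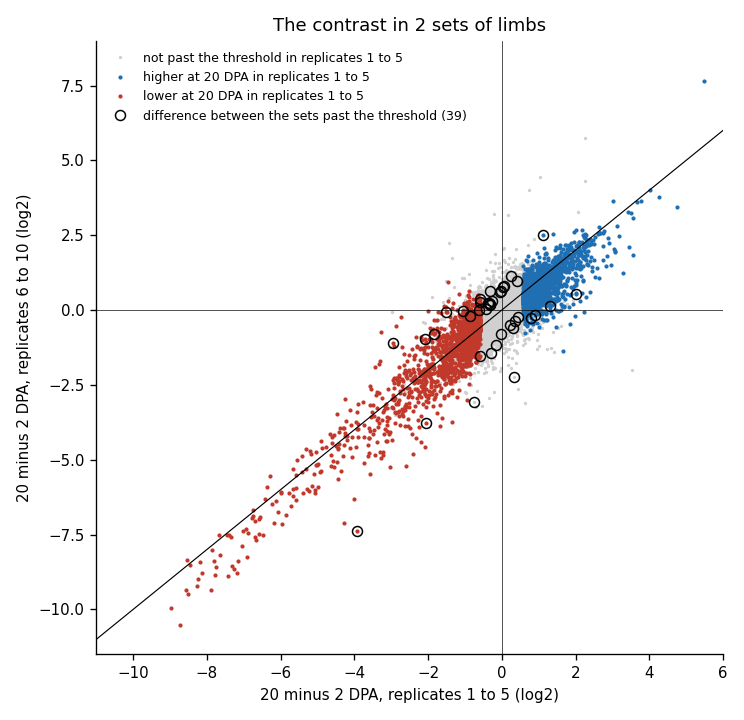
Difference between 20 and 2 DPA (log2) of each probe in replicates 1 to 5 (x axis) and in replicates 6 to 10 (y axis), with the line of equality. Blue and red points were called higher and lower in replicates 1 to 5, grey points were not called, and rings mark the 39 probes whose difference between the sets passed. Most coloured points have the same sign in both sets.

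The neighbouring contrast of 22 with 1.5 DPA in the same code series shares no array with that of 20 and 2 DPA and gave 13.6% of probes higher and 8.27% lower. Of the 2008 higher probes 1511 (75.2%) and of the 1437 lower probes 1146 (79.7%) were called the same way, and the sign was the same for 98.6% and 98.7%. *mycn* rose by 3.99 and *fgf8* by 2.98 there, *pvalb* fell by 10.20, and *fn1*, *acp5*, *samhd1*, *psat1* and *shmt2* all rose. The epidermal list differed, with 6 of 31 genes higher and 7 lower there, against 10 and 1 between 2 and 20 DPA.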

How the data were processed

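RNA from limb tips was measured on a custom Affymetrix Amby_002 array of 20080 probes. The deposited table holds RMA values on the log2 scale, computed by the authors from the array scans in Affymetrix Expression Console, per the submitters' processing notes (versions not given in the sources used here). RMA normalises the arrays together before each probe set is summarised, the deposited values still differ slightly in their array medians, and the number of arrays limits the precision. Gene symbols came from the platform annotation. Without the 45 Affymetrix control probes, 10951 have a single symbol and 9084 have none. A gene with several probes was taken by its brightest probe over the 10 arrays. Of 46 named genes with several probes that were called, every other probe was called the same way for 17 and some were not called for 26. For 3 (*dnase1l3*, *mmp2*, *c3*) another probe was called the opposite way. The opposing *dnase1l3* probe was the brighter of its 2 at 2 DPA (7.42 against 5.79).

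Groups were taken from the array titles and time labels. The 10 arrays were fitted with limma 3.58.1 (lmFit and eBayes) in R 4.3.3, with Benjamini-Hochberg adjustment over all 20035 probes, and a call needed an adjusted p under 0.05 and a log2 difference of at least 0.58. The fit was tested on simulated data. Errors are standard errors of limma unless marked SD. Fold thresholds, filters, scalings, array weights, the t test of the study's methods, a replicate block and leaving out each array were tried. Figures were drawn with matplotlib 3.10.9. The text names genes from 41 lists and the 12 largest rises and falls among named genes. These rises and falls were ranked over brightest probes that were called with no overlap between the groups. The lists and the genes named were chosen with earlier results of these data known. Authors' columns of fold changes or p-values were not used.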

Additional observations from a re-analysis of the deposited data

Results flagged for a closer look

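Among 194 named genes, a single limb stood far from the other 4 of its group in 15 of 388 groups, by the Dixon ratio for 5 samples. Chance alone gives about 1 in 20 groups. At 20 DPA, replicate 1 was high for *tnnt3* (4.78, the next 3.40) and *tnnc2* (7.33, the next 5.25) and low for *aldh1a2* (2.99), replicate 3 was high for *hoxa13* (4.59), and replicate 4 was high for *osr1* (5.33). Replicate 5 at 20 DPA was low for *postn* (9.68, the next 11.41), *arg1* (7.69, the next 9.28) and *mmrn1* (5.72). At 2 DPA, replicate 5 was high for *rbl1* (7.97) and *mmp2* (13.38) and low for *plek* (7.81) and *crabp2* (8.60), replicate 1 was high for *ngfr* (6.02), replicate 3 was low for *efna5* (3.29), and replicate 4 was low for *gadd45g* (8.89).

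The difference between 20 and 2 DPA itself differed between replicates 1 to 5 and replicates 6 to 10 for 39 probes by the interaction test of limma. Among the named genes these were *osr1* (interaction 1.46) and *thbs1* (interaction -1.71). The code letters of replicates 6 to 10 change with time, so the letters and the time cannot be told apart there.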

How the results depend on the processing

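With a 2-fold threshold 732 probes were higher and 857 lower, and with no fold threshold 3644 and 2169. Leaving out each array in turn gave 1817 to 2087 higher and 1300 to 1432 lower probes. DNA replication genes higher numbered 19 with the 2-fold threshold, and limb patterning genes higher numbered 13 with no fold threshold. Equal array medians gave 1781 and 1564, the methods' t test 1680 and 1112 after Benjamini-Hochberg and 1643 and 1083 at p up to 0.01, and all 10 replicates 2013 and 1522. With replicates 6 to 10 alone *fn1* (-0.58), *acp5* (-0.04), *samhd1* (-0.02), *psat1* (-1.38) and *shmt2* (-0.11) were not called. Their signs were negative, and *acp5* and *samhd1* showed almost no difference. The cause was not tested. Without 1 array, mitosis genes higher were 46 to 47, DNA replication genes higher 29 to 36, limb patterning genes higher 8 to 9, muscle genes lower 41 to 45 and neutrophil genes lower 5. With the replicate number as a block 1972 and 1430 probes were called and only *hes1* of the 194 named genes was lost. Same-numbered limbs did not deviate together (r from -0.18 to 0.14). So few correlations cannot show whether the numbers mark limbs of the same animal. The number of limbs and the floor of the array limit what low probes can show.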
